A study of Rattus norvegicus with 6 samples.

Results

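The genes examined here encode 8 transporters of the rat liver, Slco1a1, Slco1a4, Slco1b2, Slco2b1, Slc10a1, Slc22a7, Slc22a8 and Slc47a1, which together were measured by 12 probe sets. They were chosen by name: each probe set whose annotated gene symbol was one of these 8 was taken, out of 14218 genes that the array measured with their own probe sets. Slco1a4, Slco1b2, Slco2b1 and Slc22a8 had 2 probe sets each, and no probe set was annotated to one of the 8 together with another gene. Signal was above the array median on all 6 arrays for 11 of the 12 probe sets, covering 7 genes, and these were tested. The probe set of Slc47a1 was not above the median on any array.

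Total liver RNA came from 6 male BrlHan:WIST@Jcl(GALAS) rats, 1 array per animal. Of these, 3 ate a control diet and 3 a diet with epsilon-momfluorothrin, a pyrethroid insecticide, for 2 weeks. They were 4 weeks old when bought, spent 1 week in quarantine and were 7 weeks old at sampling. The labels disagree on the dietary level, which is 3000 ppm in the titles and the treatment protocol and 5000 ppm in the characteristics and descriptions, and the group is called treated here.

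Array medians over all probe sets were 27.0 to 29.4 in control and 23.1 to 26.5 in treated livers. The groups did not overlap (exact permutation p = 0.1, 2-sided). Medians over the tested probe sets alone were 95.4 to 96.9 in control and 91.7 to 95.1 in treated livers, also without overlap. Centring the arrays on the medians of the tested probe sets added 0.03 to the log2 differences. Centring on the medians over all probe sets was not run. Gapdh control probe sets at the 3' and 5' ends of the transcript, whose ratio reflects RNA quality, gave ratios from 1.23 to 1.28 in both groups. Those of beta-actin gave 2.24 to 2.70 in control and 2.40 to 3.12 in treated livers, highest on treated replicate 3, which also had the lowest array median.

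Hepatocytes take up bile acids and drugs from sinusoidal blood through 2 kinds of carrier. The sodium-dependent carrier Slc10a1 (NTCP) moves conjugated bile acids, and the sodium-independent organic anion transporting polypeptides of the Slco family and organic anion transporters of the Slc22 family take in bile acids, hormones, drugs and other anions. In rodent liver Slco1a4 is known to be inducible by ligands of the nuclear receptor PXR, and Slco1a1 is known to be higher in males than in females. Slc47a1 (MATE1) is an efflux carrier for organic cations at the canalicular membrane, not a sinusoidal uptake carrier, and is described with the others only because it was among the names chosen.

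The stretch of 250 bases before the annotated start is shown for 4 of the genes: the 3 genes with a probe set that was lower on all treated arrays, and Slc10a1, the bile acid carrier, for contrast. Sequences are from RefSeq on build GRCr8, 5′ to 3′ on the gene's strand, and 7 of the 8 genes were matched. Capitals mark the half-site of HNF1, a hepatocyte factor that takes part in the liver expression of several of these carriers, searched as GTTAAT on both strands (ATTAAC on the other). The stretches lie at chr4:176282334-176282583 (plus strand), chr9:22045248-22045497 (plus strand), chr1:214927034-214927283 (plus strand) and chr6:106357945-106358194 (minus strand).
Slco1b2: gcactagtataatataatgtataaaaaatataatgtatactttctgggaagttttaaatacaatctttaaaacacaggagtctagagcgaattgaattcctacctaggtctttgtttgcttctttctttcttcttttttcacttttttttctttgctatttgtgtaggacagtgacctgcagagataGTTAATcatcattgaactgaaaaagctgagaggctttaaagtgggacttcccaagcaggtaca
Slc22a7: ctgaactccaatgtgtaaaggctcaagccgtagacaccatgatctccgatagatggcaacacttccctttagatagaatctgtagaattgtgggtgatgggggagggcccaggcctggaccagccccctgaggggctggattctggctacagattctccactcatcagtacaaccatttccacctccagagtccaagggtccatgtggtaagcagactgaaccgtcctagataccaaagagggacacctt
Slc22a8: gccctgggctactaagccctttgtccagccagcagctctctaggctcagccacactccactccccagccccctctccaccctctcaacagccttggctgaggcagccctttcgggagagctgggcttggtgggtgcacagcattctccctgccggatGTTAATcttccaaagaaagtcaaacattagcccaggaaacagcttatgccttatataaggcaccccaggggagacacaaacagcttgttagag
Slc10a1: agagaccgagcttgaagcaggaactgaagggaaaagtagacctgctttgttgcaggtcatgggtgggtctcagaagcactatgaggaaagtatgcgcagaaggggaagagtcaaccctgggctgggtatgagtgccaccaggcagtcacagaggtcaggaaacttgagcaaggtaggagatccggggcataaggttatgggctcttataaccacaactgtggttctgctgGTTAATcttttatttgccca
The half-site was found in 3 of the 7 matched genes, Slco1b2, Slc22a8 and Slc10a1, and in 6.45% of 33469 stretches of the same length. It began 63 bases before the start in Slco1b2, 93 in Slc22a8 and 20 in Slc10a1. A half-site of nuclear receptors, searched as AGGTCA on both strands (TGACCT on the other), was found in Slco1b2 and Slc10a1, and in 14.1% of all stretches; it did not overlap the HNF1 letters. Also searched were the STAT5 site TTCNNNGAA, found in Slco1b2 and Slco2b1 and in 7.67% of all stretches, and the HNF4 element CAAAGTCCA (TGGACTTTG on the other strand), found in none of the 7 and in 0.338% of all stretches. These matches are descriptions of letters and show no binding, and the motifs were chosen after the values were known.

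No probe set of these carriers passed the threshold of 0.05 on the adjusted p in limma, in either direction. Over the whole array 27 of 15778 probe sets (0.171%) did, 0.133% higher and 0.038% lower. At an unadjusted p under 0.05 in limma 3 of the 11 tested probe sets were lower and 0 higher, against 6.64% and 4.92% of all probe sets. All 3 treated arrays lay below all 3 control arrays for these same 3 probe sets, which belong to Slco1b2, Slc22a7 and Slc22a8, and 10.4% of all probe sets were lower in this way. All 3 treated arrays lay above the controls for none of the 11, against 7.4% of all probe sets. Of the 11, 8 had a log2 difference below 0, against 56.3% of all probe sets. The median log2 difference (treated minus control) of the 11 was -0.06, beside -0.03 over all 15778 probe sets. With each gene read at its brightest probe set, 1 of the 7 tested carriers was lower at an unadjusted p under 0.05 in limma. This was Slc22a7, and 0 were higher. Among all 9200 genes tested, 6.18% were lower and 6.05% higher. In pieces of liver, fewer cells of a type and less RNA per cell cannot be told apart.

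**Figure D1:**
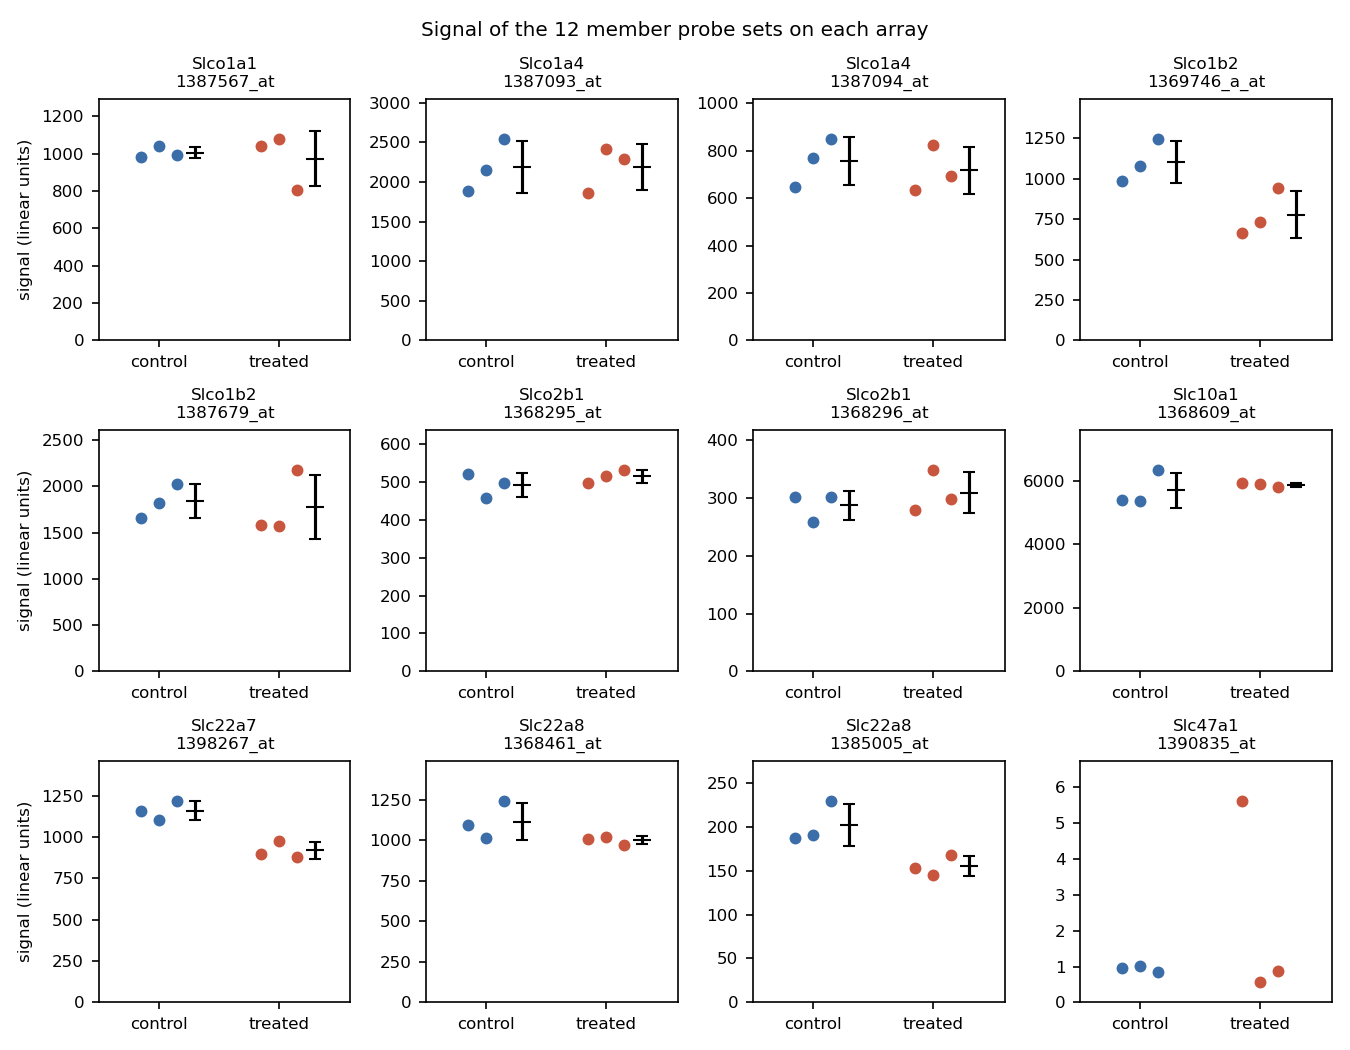
Linear signal (y axes start at 0, each with its own scale) of the 12 probe sets on the 3 control and 3 treated arrays, as points, with the mean and SD beside the points except for Slc47a1, which was never above the array median. The groups are apart for 1369746_a_at of Slco1b2, for Slc22a7 and for 1385005_at of Slc22a8, and overlap in the others.

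Slc10a1, the sodium-dependent bile acid carrier, had overlapping groups. Control replicates 1 to 3 read 5406, 5357 and 6337, and treated replicates 1 to 3 read 5928, 5905 and 5806; values are given in this order throughout. The treated values lay close together and within the range of the controls. Means were 5700 ± 552 and 5880 ± 65.0 (SD, n = 3 each), a log2 difference of 0.05 ± 0.08 (SE of 3 against 3 arrays, limma adjusted p = 0.843). The 95% interval of that difference ran from -0.13 to 0.23.

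Slco1a1, the organic anion carrier Oatp1, had signals of 982, 1039 and 995 on the control arrays, against 1038, 1078 and 805 on the treated arrays. Only treated replicate 3 fell outside the narrow spread of the controls on the low side, and treated replicate 2 lay above it. The log2 difference was -0.06 ± 0.11 (SE of 3 against 3 arrays, limma adjusted p = 0.876), with a 95% interval from -0.32 to 0.20, and its sign turned without treated replicate 3 (0.07).

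For Slco1a4, the digoxin and bile acid carrier Oatp2, the probe set 1387093_at gave 1884, 2146 and 2540 on the control arrays, against 1855, 2411 and 2290 on the treated arrays. Its means were 2190 ± 330.2 and 2185 ± 292 (SD, n = 3 each). The log2 difference was -0.0011 ± 0.13 (SE of 3 against 3 arrays, limma adjusted p = 0.998), with a 95% interval from -0.30 to 0.30. Its other probe set, 1387094_at, gave 647, 770.5 and 849 on the control arrays, against 633, 825 and 695 on the treated arrays, a log2 difference of -0.07 ± 0.13 (SE of 3 against 3 arrays, limma adjusted p = 0.856). Groups overlapped in both, and control replicate 1 and treated replicate 1 were the lowest arrays of their groups in both. The sign of each turned without control replicate 3 (0.11 and 0.01) and without treated replicate 1 (0.11 and 0.01).

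Slco2b1, a carrier of sulphated steroids and statins, also gave overlapping groups. Signals of 1368295_at were 519, 458 and 496 on the control arrays, against 496, 516 and 531 on the treated arrays, a log2 difference of 0.07 ± 0.09 (SE of 3 against 3 arrays, limma adjusted p = 0.799). Those of 1368296_at were 302, 258 and 302 on the control arrays, against 279, 348 and 299 on the treated arrays, a log2 difference of 0.10 ± 0.12 (SE of 3 against 3 arrays, limma adjusted p = 0.775). In both, control replicate 2 was the lowest array.

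Slco1b2, the liver-specific carrier Oatp4 and the main bile acid and drug carrier of the Slco family in rodent hepatocytes, was read differently by its 2 probe sets. Signals of 1369746_a_at were 989, 1080 and 1244 on the control arrays, against 661, 731 and 941 on the treated arrays. Every treated value lay below every control value, although treated replicate 3 came close to control replicate 1. Means were 1104 ± 130 and 778 ± 146 (SD, n = 3 each), and the log2 difference of -0.52 ± 0.14 missed the threshold (SE of 3 against 3 arrays, limma adjusted p = 0.234). Its 95% interval ran from -0.83 to -0.20.

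The brighter probe set of Slco1b2, 1387679_at, gave 1662, 1824 and 2030 on the control arrays, against 1587, 1576 and 2176 on the treated arrays. Treated replicates 1 and 2 were the 2 lowest arrays and treated replicate 3 the highest of all 6. The log2 difference was -0.06 ± 0.13 (SE of 3 against 3 arrays, limma adjusted p = 0.892), with a 95% interval from -0.36 to 0.25. Its sign turned without control replicate 3 (0.01) and without treated replicate 1 or 2 (0.02 each).

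On each array the signal of 1369746_a_at was divided by that of 1387679_at, so that anything acting equally on both probe sets cancels. The ratio was 0.595, 0.592 and 0.613 on the control arrays, against 0.417, 0.464 and 0.433 on the treated arrays, or 0.600 ± 0.0113 and 0.438 ± 0.0239 (SD, n = 3 each). Relative to their mean, the arrays of each group lay closer together in the ratio than in either signal, and the groups did not overlap. In an exact permutation test over arrays the p of 1369746_a_at itself was 0.1, the smallest that 3 against 3 allows, 2-sided. The log2 difference of the ratio was -0.46 ± 0.12 (SE), with a 95% interval from -0.75 to -0.16 and an unadjusted p of 0.00762 in limma, the rank 49 of 3067 such pairs. After adjustment over the 3067 pairs it did not pass (adjusted p = 0.477 in limma). None of the pairs did (0%), while 263 (8.58%) had an unadjusted p under 0.05 and the groups did not overlap in 14%. This comparison was added after the signals had been seen. By the array maker's naming, the letter a marks a probe set shared by several transcripts of a gene; which transcripts each probe set reads was not analysed here.

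**Figure D2:**
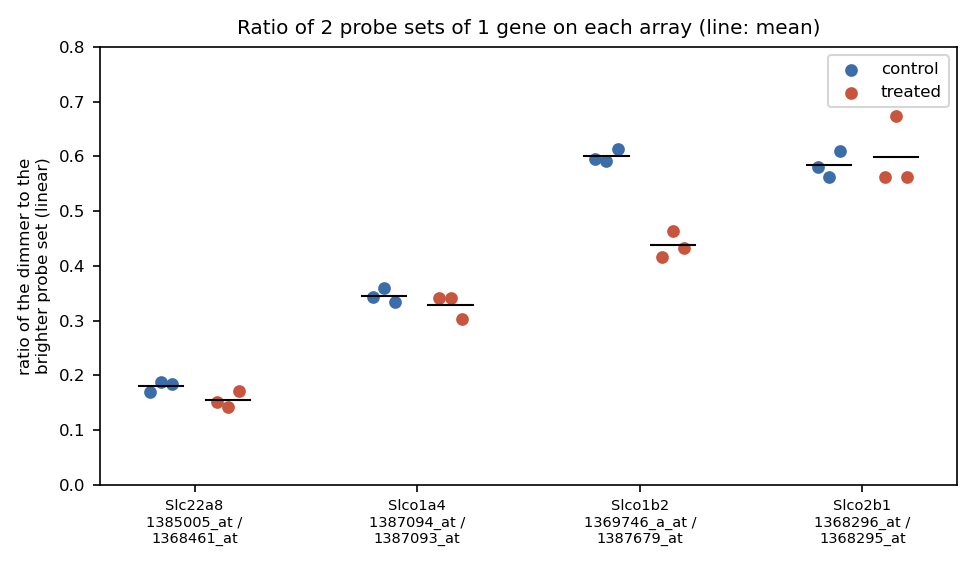
Ratio (linear, y axis from 0) of the dimmer to the brighter probe set of Slc22a8, Slco1a4, Slco1b2 and Slco2b1 on each control and treated array, with the group mean as a line. Only for Slco1b2 do the 2 groups not overlap, with 0.592 to 0.613 in control and 0.417 to 0.464 in treated livers.

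The other 3 genes with 2 probe sets had ratios whose groups overlapped. The log2 difference of the ratio was -0.22 ± 0.14 for Slc22a8, -0.07 ± 0.13 for Slco1a4 and 0.03 ± 0.14 for Slco2b1 (SE, n = 3, adjusted p = 0.712, 0.910 and 0.965 in limma). Whether these differ from the ratio of Slco1b2 was not tested.

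Slc22a7, the organic anion transporter Oat2, had signals of 1160, 1102 and 1217 on the control arrays, against 900, 978 and 880 on the treated arrays. Every treated value lay below every control value, and the arrays of each group were close together. Means were 1160 ± 57.3 and 919 ± 52.1 (SD, n = 3 each), a fold of 0.793. The log2 difference of -0.34 ± 0.08 had the smallest p of the 11 probe sets but did not pass the threshold (SE, unadjusted p = 0.00278, adjusted p = 0.199 in limma). Its 95% interval ran from -0.52 to -0.15, and it was the rank 220 of 15778 probe sets by p.

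Slc22a8, the organic anion transporter Oat3, is better known from the kidney. Its probe set 1385005_at gave 187, 190.4 and 229 on the control arrays, against 153, 145 and 168 on the treated arrays. The groups did not overlap, with means of 202 ± 23.5 and 155 ± 11.3 (SD, n = 3 each). The log2 difference was -0.38 ± 0.12 (SE, unadjusted p = 0.0127, adjusted p = 0.305 in limma), with a 95% interval from -0.65 to -0.10. The brighter probe set, 1368461_at, gave 1094, 1013 and 1242 on the control arrays, against 1010, 1023 and 973 on the treated arrays. There the groups overlapped, since control replicate 2 lay between treated values, and the log2 difference was -0.15 ± 0.09 (SE of 3 against 3 arrays, limma adjusted p = 0.564). Of 10 kidney tubule markers, 8 were not above the array median on any array, among them Umod and Slc34a1. The summed signal of all 10, the 2 brighter ones included, was 126 to 149 on the control arrays and 111 to 137 on the treated arrays. Lrp2 (megalin), one of the 2 that were brighter and named after its value was seen, had a log2 difference of -0.52 (unadjusted p = 0.0167 and adjusted p = 0.329 in limma), and its part in the values of Slc22a8 was not tested.

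Slc47a1 could not be assessed with this probe set. Its signals were 0.967, 1.02 and 0.857 on the control arrays, against 5.61, 0.571 and 0.880 on the treated arrays, where array medians were 23.1 to 29.4. Treated replicate 1 alone was higher, still under the median, so no fold is given.

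**Figure D3:**
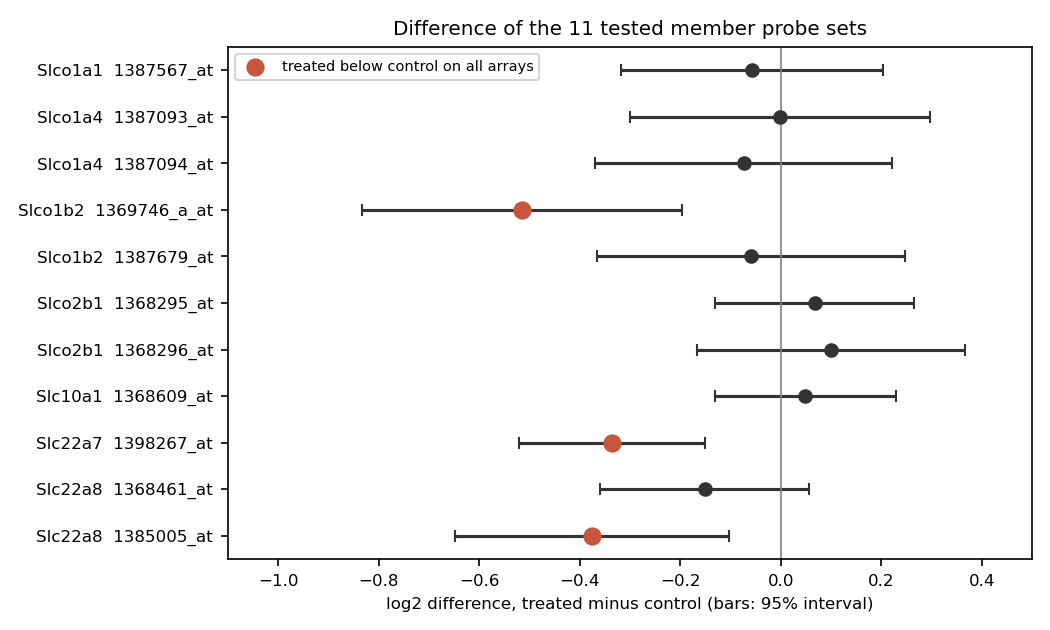
Log2 difference (treated minus control, x axis) of each of the 11 tested probe sets with its 95% interval from limma. Red points mark the 3 probe sets with all treated arrays below all control arrays, at -0.52, -0.34 and -0.38, whose intervals lie below 0 but which did not pass after adjustment over the whole array.

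Hepatocyte markers were measured beside these values. The summed signal of 14 hepatocyte markers was 95769 to 106069 in control and 86808 to 96785 in treated livers, overlapping (exact permutation p = 0.2, 2-sided). Of these 14, 12 had a log2 difference below 0 and none passed the threshold (median -0.13), with 3 lower and 1 higher at an unadjusted p under 0.05 in limma. Among all 9200 genes tested, 4828 had a difference below 0, and 6.18% were lower and 6.05% higher at that p. Serpina1, a plasma protease inhibitor, and Cps1, the first enzyme of the urea cycle, had the smallest p of the 14 and are named after their values were seen. Their log2 differences were -0.22 ± 0.07 and -0.20 ± 0.07 (SE of 3 against 3 arrays, limma adjusted p = 0.304 and 0.338), with all treated arrays below all controls. All treated arrays also lay below all controls for Apoh, Ttr and Asgr2, named after their values were seen. Groups overlapped for the rest of the 14. Over all probe sets, 10.4% had all treated arrays lower. Asgr1 and Tat, also named after their values were seen, went the other way, with overlapping groups. Their log2 differences were 0.27 ± 0.10 and 0.46 ± 0.27 (SE of 3 against 3 arrays, limma adjusted p = 0.367 and 0.555). All 14 were above the array median on at least 3 arrays. The part of the hepatocyte marker differences in the lower values of Slco1b2, Slc22a7 and Slc22a8 was not tested. Summed markers of cholangiocytes, Kupffer cells, stellate cells, sinusoidal endothelium, blood and kidney tubule overlapped between the groups as well (exact permutation p of 0.6 to 1). Single markers, named after their values were seen, lay apart in both directions. Epcam (log2 difference 0.63) and Slc4a2 (-0.27) did so for cholangiocytes, and Lyve1 (0.31) and Eng (-0.45) for sinusoidal endothelium. None passed the threshold, and 3 of 7 cholangiocyte markers were not above the array median on any array.

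The other solute carriers of organic anions and cations gave no call either. Of 32 genes listed, 25 were on the array and 10 were tested, with a median log2 difference of -0.12, and 1 was higher and 1 lower at an unadjusted p under 0.05 in limma. The shares over all 9200 genes tested were 6.05% higher and 6.18% lower. Slc22a4, the carnitine and ergothioneine carrier Octn1, had signals of 68.4, 52.7 and 52.6 on the control arrays, against 78.4, 79.1 and 73.1 on the treated arrays, a log2 difference of 0.42 ± 0.15 (SE of 3 against 3 arrays, limma adjusted p = 0.366). Slc10a2, the bile acid carrier of ileum and bile duct epithelium, had 56.8, 71.5 and 47.4 on the control arrays, against 30.2, 30.9 and 3.70 on the treated arrays. All treated values lay below the controls and treated replicate 3, the lowest, was under its array median. Its log2 difference was -1.93 ± 0.72 (SE of 3 against 3 arrays, limma adjusted p = 0.374), and without treated replicate 3 it was -0.92 ± 0.23 (SE, adjusted p = 0.403 in limma).

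Among the carriers that export drugs and bile acids, 1 of 11 tested genes passed the threshold, Abcc3, which rose (median of the list 0.02). At an unadjusted p under 0.05 in limma 6.05% of all 9200 genes tested were higher and 6.18% lower. In this list 2 were higher and 2 lower. Beside Abcc3 these were Abcg2, at 0.72 ± 0.28, Abcc6, at -0.36 ± 0.09, and Abcc5, at -0.74 ± 0.22 in log2 (SE of 3 against 3 arrays, limma adjusted p = 0.387, 0.219 and 0.272), named after their values were seen. In each the groups did not overlap. Over all probe sets, 7.4% had all treated arrays higher and 10.4% had all of them lower. Abcc3, which exports conjugates and bile acids back to blood, rose from a signal of 2.97 ± 0.0874 to 112 ± 10.7 (SD, n = 3 each). The control signal was not above the array median on any array, so the rise is at least 3.94-fold against the control array medians. The adjusted p of 0.000861 in limma belongs to the fitted log2 difference of 5.23. Without treated replicate 2 that call was lost (adjusted p = 0.0593 in limma) at a fitted log2 difference of 5.17, close to that of all arrays. Its export acts at the same sinusoidal membrane as the uptake carriers. The 7 tested genes of these carriers had log2 differences of -0.34 to 0.07 at their brightest probe sets, a median of -0.06. The dimmer probe sets ran from -0.52 (1369746_a_at of Slco1b2) to 0.10 (1368296_at of Slco2b1).

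**Figure D4:**
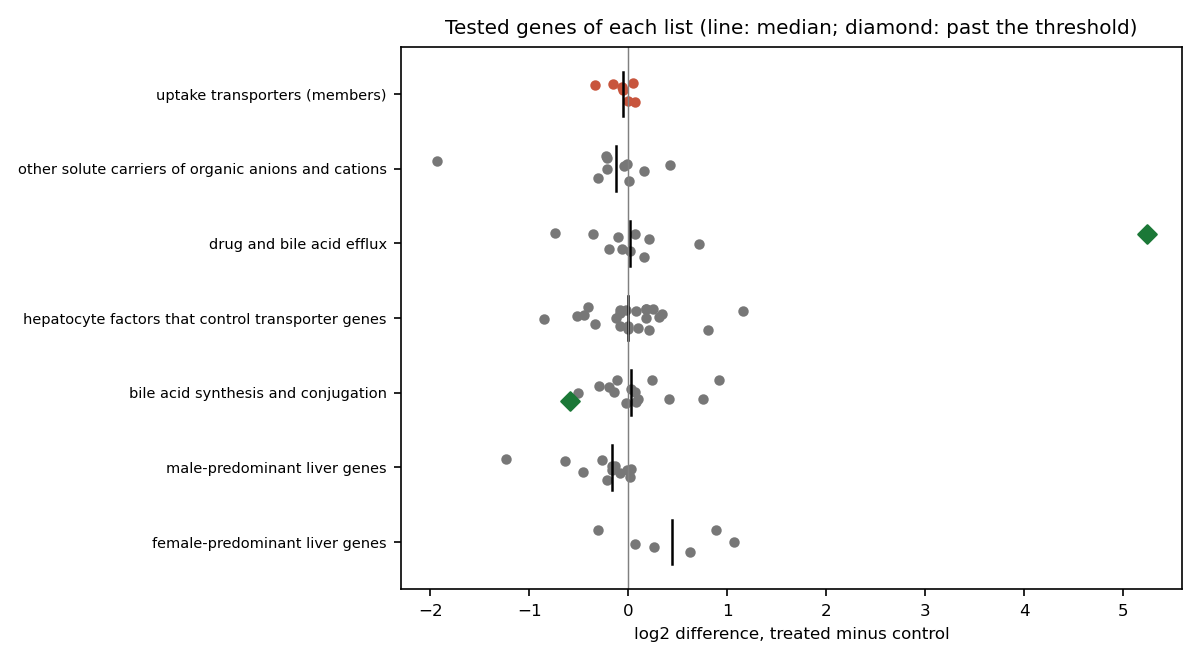
Log2 difference (treated minus control, x axis) of every tested gene, at its brightest probe set, in the uptake carriers and in 6 lists of related genes. Lines are list medians and green diamonds are genes past the threshold. These are Abcc3 at a fitted 5.23 (at least 3.94-fold, since its control signal was under the array median) and Cyp8b1 at -0.59. The uptake carriers lie between -0.34 and 0.07 at these probe sets, and their dimmer probe sets are not shown.

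Bile acid synthesis and conjugation, which supplies the substrates of Slc10a1 and Slco1b2, had 15 tested genes and 1 call. Cyp8b1, the sterol 12-alpha-hydroxylase of cholic acid synthesis, fell from 3508, 3146 and 2990 in control to 2190, 2025 and 2173 in treated livers. The log2 difference was -0.59 ± 0.08 (SE of 3 against 3 arrays, limma adjusted p = 0.0443), and the call was lost without any 1 of the 6 arrays. At an unadjusted p under 0.05 in limma 3 were higher and 3 lower, Cyp8b1 included, against 6.05% and 6.18% of all genes tested. The list's median was 0.03, beside -0.01 over the 9200 genes tested.

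None of 23 tested factors that control carrier genes passed (median -0.0013), with 3 higher and 2 lower at an unadjusted p under 0.05 in limma. The shares over all 9200 genes tested were 6.05% higher and 6.18% lower. Nr0b2 (SHP), a repressor induced by the bile acid receptor FXR and known to act on Slc10a1, had signals of 338, 494 and 205 on the control arrays, against 584, 1072 and 615 on the treated arrays. Treated values were all higher, with a wide spread in both groups, and the log2 difference was 1.16 ± 0.32 (SE of 3 against 3 arrays, limma adjusted p = 0.241). Nfe2l2 (NRF2) is a transcription factor of the response to electrophilic stress. Its signals were 745, 671 and 757 on the control arrays, against 636, 511 and 457 on the treated arrays. The log2 difference was -0.45 ± 0.13 (SE of 3 against 3 arrays, limma adjusted p = 0.248).

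Sex-dependent liver genes were listed because Slco1a1 is one of them. Of 12 tested male-predominant genes none passed, and 4 were lower and 0 higher at an unadjusted p under 0.05 in limma (median -0.17), where 6.18% of all 9200 genes were lower and 6.05% higher. Obp3, a urinary carrier protein of the male liver, had 6454, 3459 and 7084 on the control arrays, against 3487, 2181 and 1609 on the treated arrays. Control replicate 2 overlapped the treated values, and the log2 difference was -1.23 ± 0.31 (SE of 3 against 3 arrays, limma adjusted p = 0.218). Cyp2c13, a male-specific cytochrome P450, had a log2 difference of -0.17 ± 0.06 with no overlap (SE of 3 against 3 arrays, limma adjusted p = 0.382). Of 6 tested female-predominant genes none passed, and 1 was higher and 1 lower at an unadjusted p under 0.05 in limma (median 0.44). Prlr, the prolactin receptor, had 262, 267 and 143 on the control arrays, against 419, 457 and 485 on the treated arrays (log2 difference 1.07 ± 0.22, SE, n = 3, adjusted p = 0.136 in limma), and the oestrogen sulphotransferase Sult1e1 had a log2 difference of -0.30 ± 0.10 (SE of 3 against 3 arrays, limma adjusted p = 0.309). Sult1e1 was in the female-predominant list, but in rat liver it is known as male-predominant. It was the only gene of that list with a log2 difference below 0. It was set aside after its value was seen and was not added to the male-predominant list. Without it the other 5 genes had a median of 0.62 with 1 higher and 0 lower at an unadjusted p under 0.05 in limma.

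The gene whose 6 centred log2 signals lay closest to those of each carrier, by root mean square distance over the 6 arrays and among 9141 named genes, was taken as a description of likeness. Each carrier was read at its brightest probe set. For Slco1b2 and Slc22a8 these were 1387679_at and 1368461_at, so 1369746_a_at and 1385005_at were not compared. Slc22a7 was closest to Blmh (bleomycin hydrolase), at a distance of 0.03, and Blmh had a log2 difference of -0.35 (adjusted p = 0.294 in limma). Slco1a1 was closest to Zfp612 (0.03), Slco1a4 to Pla1a (0.04), Slco1b2 to Dock9 (0.04), Slco2b1 to Lasp1 (0.02), Slc10a1 to Cyp4f6 (0.02) and Slc22a8 to Mtrex (0.02). Between 61 genes (for Slco1b2) and 1122 genes (for Slco2b1) lay within a distance of 0.1, so each closest gene was one of many.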

How the data were processed

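The file holds 1 intensity per probe set and array, on a linear scale, as deposited for 6 biotin-labelled Affymetrix arrays. The submitters' processing notes name MAS5, and its version is not given in the sources used here. All arrays had a trimmed mean of about 100 with 2% left out at each end, so they were not scaled again. Detection calls were not used here.

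Probe sets were named from GEO's platform annotation. Of 31099, 57 controls were left out, and the others entered the test if their signal was above the median of the array on at least 3 arrays, which left 15778. The test was run on log2 signals in R 4.3.3 with limma 3.58.1 (lmFit, eBayes with a trend, 2-sided), and p-values were adjusted by Benjamini-Hochberg over all 15778, with 0.05 as the threshold. Ratios of 2 probe sets of a gene were fitted without a trend. A gene was represented by its brightest kept probe set, and lists were described by counts and medians.

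The members and lists were chosen with earlier results of these data known. Named genes were all members, up to 3 called genes per pathway list (the 2 of smallest p in a list without calls), and the closest gene to each member; other names are marked in the text as chosen after their values were seen, apart from markers given only as dim and Acot8 and Cyp2c12, which were called only with an array left out. The fit was tested on simulated arrays. The number of arrays limits the precision; labels call the replicates biological. The alternatives changed the filter, scaling, pseudocount, variance model, array weights, block and probe set rule, and left out each array. Motifs were searched in RefSeq sequences of build GRCr8.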

Additional observations from a re-analysis of the deposited data

How the results depend on the processing

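No carrier probe set passed the threshold in any of the 14 alternatives, and 3 were lower at an unadjusted p under 0.05 in each. The 3 kept their sign throughout, with log2 differences of -0.66 to -0.41 for 1369746_a_at of Slco1b2 (adjusted p of 0.138 to 0.421 in limma), -0.39 to -0.30 for Slc22a7 (0.156 to 0.494) and -0.43 to -0.28 for 1385005_at of Slc22a8 (0.243 to 0.500). Across the alternatives 4 carrier probe sets near 0 changed sign. Leaving out 1 array moved Slco1a1 from -0.14 to 0.074, 1387093_at of Slco1a4 from -0.10 to 0.11, 1387094_at from -0.18 to 0.015 and 1387679_at of Slco1b2 from -0.21 to 0.020, and 1387093_at was also at 0.034 with median centring and 0.020 with array weights. The mean of both probe sets gave Slco1b2 -0.29 (adjusted p = 0.440 in limma) and Slc22a8 -0.26 (adjusted p = 0.333 in limma). The ratio of the Slco1b2 probe sets ran from -0.50 to -0.42 (adjusted p of 0.467 to 0.819 in limma), and that of Slco2b1 from -0.054 to 0.077.

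Over the whole array 21 probe sets were higher and 6 lower. Without an intensity trend they were 3 and 0, without a filter the lower were 3, and with 1 array left out 3 to 23 and 2 to 6. With a replicate block they were 10 and 5, and 1369746_a_at of Slco1b2 had an adjusted p of 0.138 in limma; the block ended the call of Cyp8b1 and no other list call. Deviations of same-numbered arrays correlated at -0.10, 0.10 and -0.06, so the numbers were not taken as pairs. The Cyp8b1 call left 0 lower bile acid genes without a filter, with median centring, without an intensity trend and with any 1 array left out (0 to 0). Efflux calls were 0 to 1 with 1 array left out. Without control replicate 2 Acot8 was called higher, giving 0 to 1 in the bile acid list, and without control replicate 3 Cyp2c12 was, giving 0 to 1 in the female-predominant list. The causes of these changes were not tested.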
